A study of Homo sapiens with 6 samples.

Results

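The genes described here are 10 transcriptional targets of p53, MDM2, GADD45A, BTG2, TP53INP1, AEN, ZMAT3, SESN1, TIGAR, FDXR and RRM2B, which were found by symbol among the 27328 rows of an expression table of SACC-83 cells. All 10 had a row of their own. SACC-83, an established human line, is labelled as salivary adenoid cystic carcinoma. One group of 3 libraries carries an empty vector and its genotype label reads WT. The other group of 3 libraries overexpresses circMYBL1, a circular RNA named after the gene MYBL1, and its genotype labels read circMYBL1, circMYBL2 and circMYBL3 for replicates 1, 2 and 3, so whether the 3 libraries carry the same construct is uncertain. The sequencing was meant to identify genes that the circular RNA acts on. The sources used here do not say whether the lines are clones or pools, nor whether each library had its own culture; the p-values below therefore cover only library-to-library spread, part or all of which may be technical.

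The protein p53 is a transcription factor that is kept scarce in unstressed cells because MDM2, itself a p53 target, marks it for degradation. When DNA is damaged or growth signals are abnormal, p53 accumulates, binds to paired short motifs in the DNA of its targets, and raises genes that stop the cell cycle, repair DNA, tune metabolism or start apoptosis. Many of these genes also answer to other stress-responsive factors, so their mRNA levels are not a measure of p53 alone.

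The p53 motif is shown first because the genes are grouped here as p53 targets. RefSeq promoter sequences (GRCh38.p14, 250 bases before to 50 after a start site) were at hand for 7 of the 10 genes, with 14 start sites in all. They were searched, in both orientations, for the 10-base p53 half-site and for a 20-base element of 2 such sites without a spacer and with at most 2 bases off the motif. The half-site was found at 6.63% of 35116 promoters and the 20-base element at 0.649%. The element stood at 3 of the 14 member start sites, in MDM2 and AEN, and the half-site at 3, in SESN1, AEN and FDXR. In the sequences below, capitals mark the match and lower case its flanks, each 5′ to 3′ on the strand of the gene.
MDM2, inner promoter, chr12:68808903-68808962, plus strand: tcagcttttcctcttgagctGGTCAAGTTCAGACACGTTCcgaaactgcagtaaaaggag
AEN, chr15:88621301-88621330, plus strand: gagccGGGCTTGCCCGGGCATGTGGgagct
SESN1, one of 3 start sites, chr6:109009008-109009057, minus strand: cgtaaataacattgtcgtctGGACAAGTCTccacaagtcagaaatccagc
FDXR, chr17:74872995-74873010, minus strand: ggagcGGGCTTGCCCt
The MDM2 element lies 94 to 75 bases before one start site and 101 to 82 bases before another. The AEN element lies 34 to 15 bases before its start, the SESN1 half-site 49 to 40 and the FDXR half-site 11 to 2. These starts are those of RefSeq. In GENCODE release 29 all 30 printed AEN bases and all 16 printed FDXR bases lie in exons of the same gene. A match describes the letters and is no evidence of binding in these cells, and the data hold no binding measurement. Bases outside these windows were not searched, so a gene without a match is not shown to lack the motif.

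Values are deposited FPKM, fragments scaled by gene length and by library size, which allow levels of different genes to be set side by side. Summed FPKM lay between 371780 and 408830 per library, and the read depth is unknown from these values. MYBL1, the check of the overexpression label, read 9.04, 7.15 and 10.3 FPKM in vector libraries 1, 2 and 3 and 359, 44.0 and 2025 FPKM in overexpression libraries 1, 2 and 3. The libraries numbered 2 in both groups stood apart from the other 4. Same-numbered libraries of the groups varied together, as did numbers 1 and 3 of opposite groups. Of the epithelial and salivary markers, EPCAM (76.3 to 88.5 FPKM), KRT18 (534 to 679 FPKM), KRT7 and KRT8 were high in every library. CDH1 read 8.61 to 21.3 FPKM and KRT19 only 0.243 to 1.10 FPKM. AQP5, a marker of salivary acini, and KIT, a receptor typical of adenoid cystic carcinoma, were listed at 0 in all 6. Of the other adenoid cystic carcinoma markers, SOX10 read 0.120 to 0.814 FPKM, MYB 0.688 to 1.21 FPKM and NFIB 0.932 to 2.44 FPKM. The leukocyte markers PTPRC, CD3E and LYZ were listed at 0 in all 6 as well.

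No p53 target gene passed the test between the groups, while GADD45A, BTG2, AEN, TIGAR, MDM2 and RRM2B differed by replicate number and FDXR and SESN1 did not pass that test. Differences are given as log2(FPKM + 1), which understates those of low genes. A gene was tested if it reached 1 FPKM in at least 3 of the 6 libraries, which 12064 genes and 8 of the 10 members did. By limma with group as the only term, 0 of the 8 passed an adjusted p of 0.05, against 0% of all genes tested (0 genes, while at an unadjusted p under 0.05 there were 0 members, against 65 genes or 0.539% of all). MYBL1 did not pass in this fit either, although every overexpression library read higher than every vector library. With replicate number as a block, 0 of the 8 passed against 0.0995% of all genes, and 2 members had an unadjusted p under 0.05 against 7.19% of all genes. MYBL1 passed in this block fit (limma, adjusted p = 0.0225). Intervals of single genes below come from the block fit, an alternative to the planned fit with group alone. With group alone the intervals of all 8 were wider and included 0. By the moderated F test of replicate number, 6 of the 8 passed against 46.5% of all genes.

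**Figure D1:**
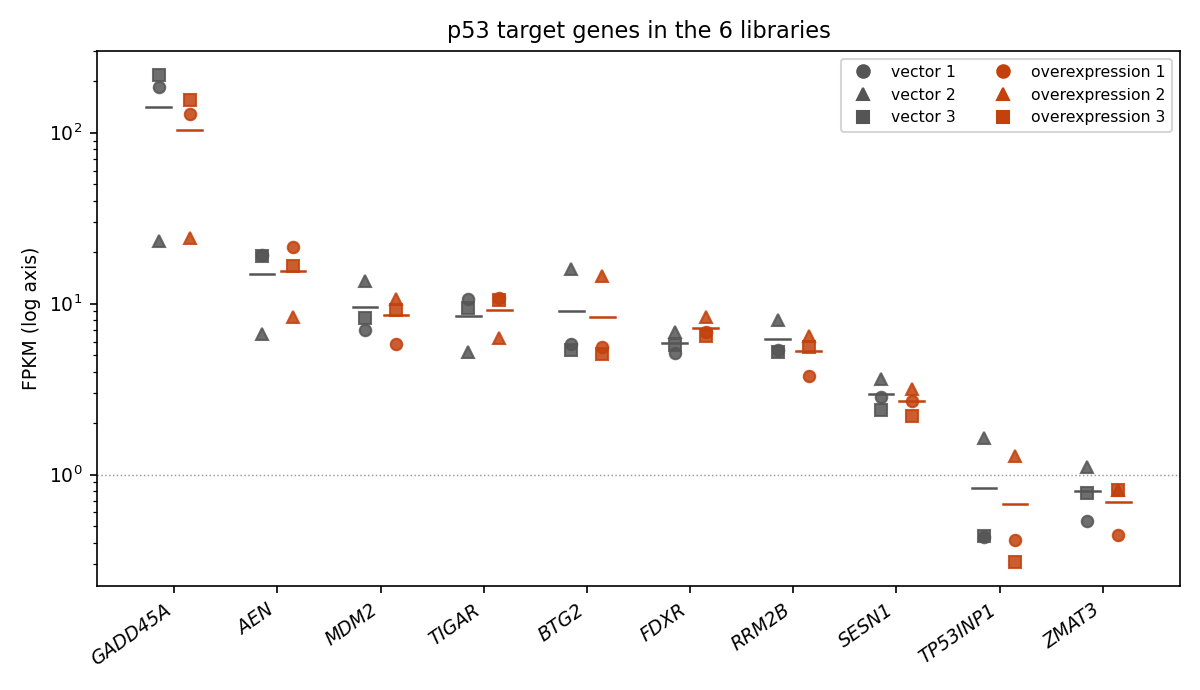
FPKM of the 10 p53 target genes on a log axis, ordered by mean level, with 1 symbol per library (circles number 1, triangles number 2, squares number 3), vector in grey and overexpression in orange, short lines at group means, and a dotted line at 1 FPKM. The triangles lie at the bottom for GADD45A, AEN and TIGAR and at the top for the other 7 genes, and the 2 groups overlap for every gene.

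MDM2, the ubiquitin ligase that marks p53 for degradation, read 7.02, 13.5 and 8.26 FPKM in vector libraries 1, 2 and 3 and 5.79, 10.7 and 9.19 FPKM in overexpression libraries 1, 2 and 3 (ENSG00000135679, chromosome 12, 68808176 to 68850686, plus strand, GENCODE release 29 on GRCh38). Both number 2 libraries lay above the other 4, and the groups overlapped. Overexpression was lower in pairs 1 and 2 and higher in pair 3. The group means were 9.60 ± 3.45 and 8.55 ± 2.50 FPKM (SD, n = 3 each), with a log2 difference of -0.14 (95% confidence interval -0.40 to 0.12 with the block, limma, adjusted p = 0.809). After a correction for GC content and transcript length, chosen with the data in view, the difference was -0.03 (block fit, limma, adjusted p = 0.968). MDM2 differed between replicate numbers (limma F test, adjusted p = 0.00360), with a mean 1.60 times as high in number 2 as in numbers 1 and 3. With all expressed rows kept in the test, this call was lost (adjusted p = 0.0569). Exons of MDM2 overlap those of CPM on the other strand, which read 0.208 FPKM on average.

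GADD45A, a stress-induced protein that halts the cell cycle and takes part in DNA repair, was the most abundant member and the one that varied most. It read 185, 23.2 and 217 FPKM in vector libraries 1, 2 and 3 and 129, 24.1 and 156 FPKM in overexpression libraries 1, 2 and 3 (ENSG00000116717, chromosome 1, 67685061 to 67688338, plus strand). The number 2 libraries were low in both groups, and their values were close to each other. The mean over numbers 1 and 3 was 7.28 times that over number 2 (F test, adjusted p = 3.03e-06). On the log2 scale the difference of number 2 from the others was -2.79, and 6 of the 12064 tested genes lay further below.

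Between the groups GADD45A gave a log2 difference of -0.31 (95% confidence interval -0.58 to -0.05 with the block, limma, adjusted p = 0.632), from 142 ± 104 to 103 ± 69.7 FPKM. With group as the only term the interval was -2.71 to 2.08. In numbers 1 and 3 both overexpression libraries were below both vector libraries, with ratios of 0.699 and 0.718 within the pairs, while in number 2 the ratio was 1.04. A block fit without number 2 gave -0.50 (limma, adjusted p = 0.0224), but with 2 libraries per group hardly any residual freedom is left and that p cannot be relied on. Without the block the difference turned to 0.14 without vector replicate 1, to 0.25 without vector replicate 3 and to 0.52 without overexpression replicate 2.

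BTG2, an antiproliferative protein that recruits the mRNA deadenylation machinery, showed the opposite pattern by number. It read 5.78, 16.0 and 5.35 FPKM in vector libraries 1, 2 and 3 and 5.58, 14.6 and 5.05 FPKM in overexpression libraries 1, 2 and 3 (ENSG00000159388, chromosome 1, 203305491 to 203309602, plus strand). The number 2 libraries were high in both groups and the other 4 lay close together. The mean in number 2 was 2.81 times that in numbers 1 and 3 (F test, adjusted p = 4.97e-05). Overexpression was lower in 3 of 3 pairs by little, with a log2 difference of -0.08 (95% confidence interval -0.30 to 0.14 with the block, limma, adjusted p = 0.870). The 2 growth arrest genes of the set thus moved in opposite directions between replicate numbers.

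AEN, a nuclease that degrades DNA in apoptosis, read 19.4, 6.66 and 18.9 FPKM in vector libraries 1, 2 and 3 and 21.6, 8.34 and 16.5 FPKM in overexpression libraries 1, 2 and 3 (ENSG00000181026, chromosome 15, 88621296 to 88632282, plus strand). The number 2 libraries were low in both groups. The mean over numbers 1 and 3 was 2.54 times that in number 2 (F test, adjusted p = 0.000140). The log2 difference between the groups was 0.08 (95% confidence interval -0.17 to 0.34 with the block, limma, adjusted p = 0.880), with overexpression higher in 2 pairs and lower in pair 3.

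TP53INP1, which promotes p53 phosphorylation and autophagy, and ZMAT3, an RNA-binding zinc finger protein that acts on splicing and mRNA stability, were the scarcest members and missed the filter. TP53INP1 (ENSG00000164938, minus strand of chromosome 8, 94925972 to 94949411) read 0.429, 1.64 and 0.439 FPKM in vector libraries 1, 2 and 3 and 0.414, 1.28 and 0.309 FPKM in overexpression libraries 1, 2 and 3. It was above 1 FPKM in the number 2 libraries of both groups and below 0.5 FPKM in the other 4, with a ratio of 3.67 between the means. Without the filter, its F test for replicate number gave an adjusted p of 0.0305. ZMAT3 (ENSG00000172667, minus strand of chromosome 3, 179017223 to 179072279) read 0.536, 1.10 and 0.783 FPKM in vector libraries and 0.441, 0.815 and 0.811 FPKM in overexpression libraries, numbers 1 to 3. The overexpression libraries 2 and 3 were almost level, and without the filter its F test gave an adjusted p of 0.161. Log2 differences between the groups were -0.12 for TP53INP1 and -0.09 for ZMAT3.

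The metabolic members were split as well. TIGAR, a phosphatase that lowers glycolytic flux, read 10.7, 5.19 and 9.39 FPKM in vector libraries 1, 2 and 3 and 10.8, 6.29 and 10.4 FPKM in overexpression libraries 1, 2 and 3 (ENSG00000078237, chromosome 12, 4307763 to 4354593, plus strand). It was low in number 2, with a mean 1.80 times as high in numbers 1 and 3 (F test, adjusted p = 0.00127). Overexpression was higher in 3 of 3 pairs, with a log2 difference of 0.13 (95% confidence interval -0.10 to 0.36 with the block, limma, adjusted p = 0.802), and the groups overlapped. Without vector replicate 2 the difference without the block was -0.15.

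RRM2B, a subunit of ribonucleotide reductase that supplies nucleotides for DNA repair, read 5.33, 8.06 and 5.18 FPKM in vector libraries 1, 2 and 3 and 3.76, 6.47 and 5.60 FPKM in overexpression libraries 1, 2 and 3 (ENSG00000048392, chromosome 8, 102204502 to 102239118, minus strand). The number 2 libraries were the highest of their groups, and the mean there was 1.46 times that in numbers 1 and 3 (F test, adjusted p = 0.0259). That call ended with trimmed mean scaling (adjusted p = 0.107), without a filter (0.139), without vector replicate 2 (0.153) and without overexpression replicate 1 (0.0508). Between the groups the log2 difference was -0.20 (95% confidence interval -0.47 to 0.08 with the block, limma, adjusted p = 0.781), with overexpression lower in pairs 1 and 2 and higher in pair 3; without the block it was -0.01 without overexpression replicate 1.

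FDXR, a mitochondrial reductase that feeds electrons to steroid and iron-sulfur cluster synthesis, was the member with the largest difference upward between the groups. It read 5.17, 6.85 and 5.73 FPKM in vector libraries 1, 2 and 3 and 6.82, 8.38 and 6.48 FPKM in overexpression libraries 1, 2 and 3 (ENSG00000161513, chromosome 17, 74862497 to 74873031, minus strand). Overexpression was higher in 3 of 3 pairs, by ratios of 1.32, 1.22 and 1.13, yet overexpression libraries 1 and 3 lay below vector library 2. The log2 difference was 0.25 (95% confidence interval 0.02 to 0.48 with the block, limma, adjusted p = 0.650), and it stayed between 0.15 and 0.34 without any 1 library. With group as the only term the interval was -0.14 to 0.64. The difference was 0.17 after the correction for GC content and transcript length (block fit, limma, adjusted p = 0.713). FDXR did not pass the F test of replicate number (adjusted p = 0.120).

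SESN1, a sestrin that restrains the growth kinase complex mTORC1, read 2.85, 3.62 and 2.37 FPKM in vector libraries 1, 2 and 3 and 2.68, 3.19 and 2.19 FPKM in overexpression libraries 1, 2 and 3 (ENSG00000080546, chromosome 6, 108986437 to 109094819, minus strand). Both number 2 libraries lay above the other 4 by a narrow margin, and the F test gave an adjusted p of 0.0821. It passed without a trend in the variance (adjusted p = 0.0492) and after the correction for GC content and transcript length (0.0374). Overexpression was lower in 3 of 3 pairs, with a log2 difference of -0.10 (95% confidence interval -0.36 to 0.17 with the block, limma, adjusted p = 0.870).

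**Figure D2:**
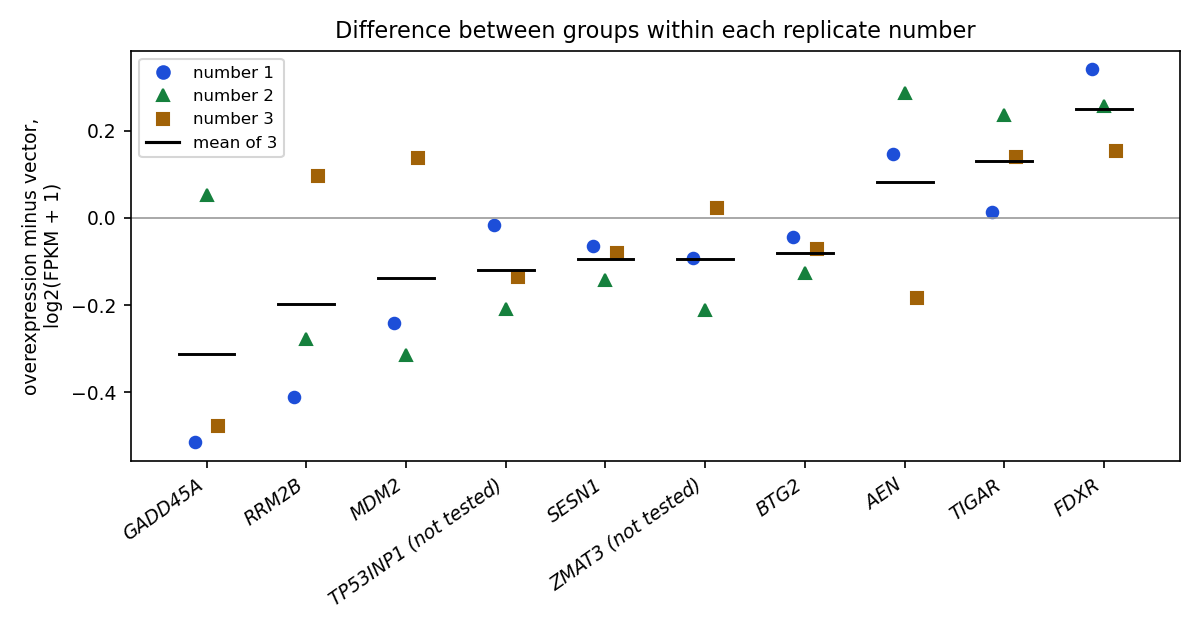
Overexpression minus vector on the log2(FPKM + 1) scale for each gene within replicate numbers 1 (blue circle), 2 (green triangle) and 3 (brown square), with a black line at the mean of the 3, genes ordered by that mean. FDXR and TIGAR lie above 0 and BTG2, SESN1 and TP53INP1 below 0 in all 3 pairs, and the other 5 genes have pairs on both sides.

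As a list, the 8 tested members showed no common direction between the groups. Their median log2 difference was -0.09, beside 0.03 over all genes tested, with 3 members higher (58.1% of all genes) and 5 lower. Overexpression was higher in 3 of 3 pairs for 2 of the 8 (FDXR and TIGAR), against 16.5% of all genes, and lower in 3 of 3 pairs for 2 (BTG2 and SESN1), against 11.9%. For none of the 8 were the groups' ranges apart, against 3.34% of all genes (2.5% higher and 0.845% lower in overexpression). The median was -0.05, -0.04 and 0.01 in pairs 1, 2 and 3. In the fit without the block, AEN, BTG2, GADD45A, MDM2, SESN1 and TIGAR turned sign when 1 library or another was left out. FDXR and RRM2B did not. In block fits without a replicate number, AEN alone of the tested members turned (-0.019 without number 2).

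By replicate number, all 8 tested members lay outside the range of the other 4 libraries in number 2, against 61.6% of all genes. For 5 of them number 2 was above (35.9% of all genes) and for 3 below (25.7%). FDXR was above by a narrow margin, with 6.85 FPKM in vector library 2 against 6.82 FPKM in overexpression library 1. These ranges were compared on deposited FPKM only. The median size of the difference, regardless of sign, was 0.69 on the log2 scale, beside 0.32 over all genes tested, and it was over 1 for GADD45A, BTG2 and AEN, against 7.09% of all genes. Number 2 was singled out after earlier results of these data were known, so these counts are descriptions. The directions held for all 10 members with FPKM, TPM and trimmed mean scaling, while the median of all tested genes, number 2 minus the others, moved from 0.07 with FPKM to 0.14 with TPM and -0.07 with trimmed mean factors. Among the 6 members called by number, 3 were higher and 3 lower in number 2 (58.6% higher among all genes called), and with trimmed mean factors 2 were higher and 3 lower (39.7%).

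**Figure D3:**
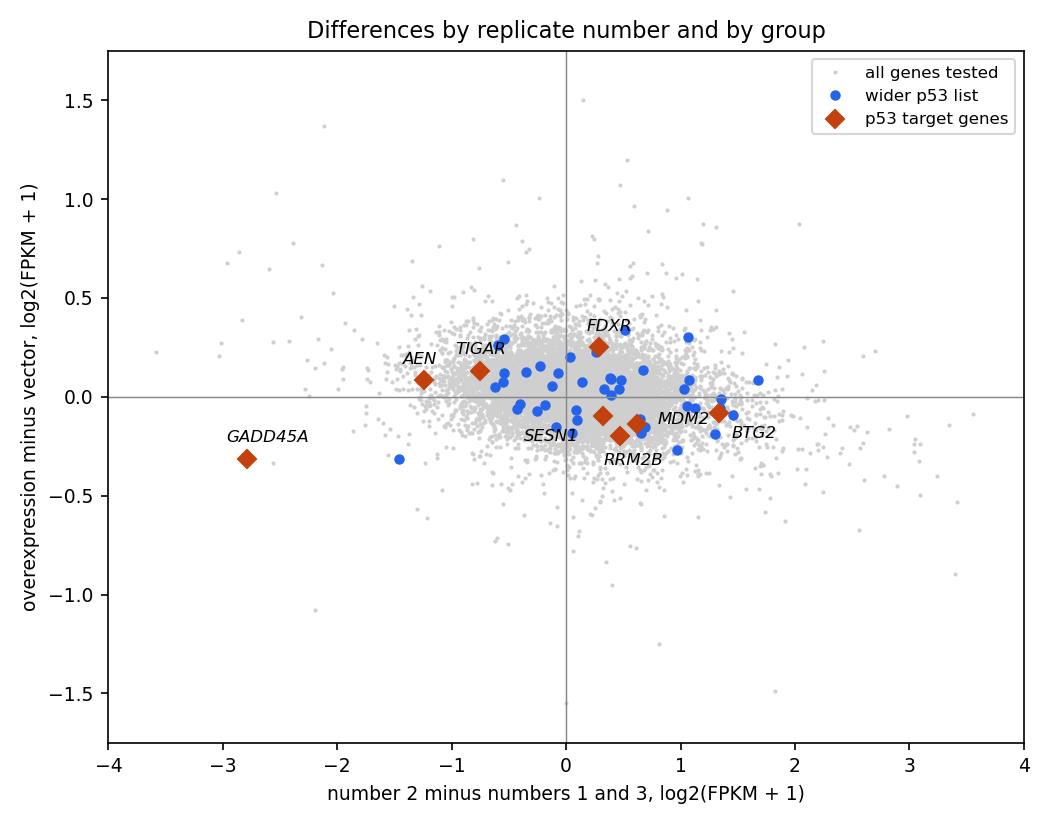
Each tested gene by its difference between number 2 and numbers 1 and 3 (horizontal) and between overexpression and vector (vertical), both on the log2(FPKM + 1) scale, with the 8 tested members as orange diamonds, the wider p53 list as blue points and all other genes in grey; 7 genes lie outside the axes. The members spread from -2.79 to 1.34 along the horizontal axis and from -0.31 to 0.25 along the vertical one.

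Other properties of the libraries moved with replicate number, and their part in these results was not tested. Of 5 markers of myoepithelial cells, 4 (KRT5, KRT14, TP63 and ACTA2) were higher in both number 2 libraries than in any other, with KRT5 at 347 and 412 FPKM against 94.9 to 142, and CNN1 stayed below 0.3 FPKM. TP63 is also counted below among p53 regulators and relatives. The scarce adenoid cystic carcinoma markers MYB, SOX10 and NFIB were higher in both number 2 libraries too. MYB did not pass the F test of replicate number (adjusted p = 0.258), and SOX10 was not tested. Epithelial markers were mixed. CDH1 was higher in both number 2 libraries (20.1 and 21.3 FPKM against 8.61 to 14.6). KRT7 was lower in both (234 and 304 FPKM against 428 to 679), as was KRT8, while EPCAM, KRT18 and KRT19 overlapped. The summed level of 9 markers of fibroblasts, leukocytes and endothelium was 10.1 and 12.9 FPKM in the number 2 libraries and 3.15 to 4.74 in the others, most of it COL1A1. In bulk samples fewer cells of a type and less RNA per cell cannot be told apart. The mitochondrial share of summed FPKM was 8.43% and 10.2% in the number 2 libraries and 5.64% to 8.76% in the others. It did not set number 2 apart, since overexpression library 2 (8.43%) lay below vector library 3 (8.76%) and overexpression library 3 (8.52%). Number 1 was the lowest in both groups (7.15% in vector and 5.64% in overexpression). Across 11166 genes, which are not independent, the difference by number had a Spearman correlation of -0.02 with GC content and 0.21 with transcript length. The difference between the groups in pair 1 had a correlation of 0.53 with GC content and -0.30 with length, against 0.12 and -0.17 in pair 2 and -0.09 and -0.03 in pair 3. After correction for both, the 6 member calls held and SESN1 was added.

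MDM4, the partner of MDM2 that inhibits p53 directly, read 3.95, 8.22 and 5.38 FPKM in vector libraries and 3.68, 7.02 and 5.16 FPKM in overexpression libraries, numbers 1 to 3 (F test, adjusted p = 0.00190). CDKN1A, the cell cycle inhibitor p21, read 33.0, 60.2 and 36.7 FPKM in vector libraries and 57.6, 60.1 and 43.2 FPKM in overexpression libraries, numbers 1 to 3. Its log2 difference of 0.34 between groups did not pass (block fit, limma, adjusted p = 0.645). Pair 1 gave most of it (0.79), with -0.003 in pair 2 and 0.23 in pair 3. After the correction for GC content and transcript length the difference was 0.27 (block fit, limma, adjusted p = 0.666). The call of CDKN1A by number (F test, adjusted p = 0.0362) ended with trimmed mean scaling (0.0971).

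A wider list held 48 further p53 pathway genes. Of these, 43 were tested, and 0 passed between the groups in either fit, with 3 at an unadjusted p under 0.05 in the block fit (CDKN1A, PLK2 and PLK3; 7.19% of all genes, so 3 of 43 is near the background) and 0 without the block (0.539% of all genes). The median log2 difference was 0.04, beside 0.03 over all genes. The genes highest in overexpression were CDKN1A, TNFAIP8 (0.30), an anti-apoptotic protein, and PLK3 (0.29), a stress-responsive kinase. The lowest were the related kinase PLK2 (-0.32), the secreted stress cytokine GDF15 (-0.27) and the autophagy regulator DRAM1 (-0.19). All 6 had adjusted p between 0.615 and 0.786 in the block fit (limma).

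By replicate number 26 of the 43 passed, or 60.5% against 46.5% of all genes, 20 higher and 6 lower in number 2. With trimmed mean factors the split was 15 higher and 11 lower, and without a filter on low values 14 genes passed. The highest in number 2 by the difference in log2(FPKM + 1), with folds given on the FPKM scale, were CD82, a membrane tetraspanin (3.33 times as high as in numbers 1 and 3, F test, adjusted p = 3.16e-05), TP73, a p53 family member (3.68 times, 0.000839), and DDB2, a sensor of ultraviolet damage (2.65 times, 6.91e-05). The lowest were PLK2 (numbers 1 and 3 2.91 times as high, F test, adjusted p = 5.72e-05), TRIAP1, an apoptosis inhibitor (1.58 times, 0.00283), and RCHY1, a ubiquitin ligase that acts on p53 (1.76 times). RCHY1 did not pass (F test, adjusted p = 0.0526), and its exons overlap THAP6 on the other strand. It read 9.32 FPKM in overexpression library 1, against 4.10 to 4.74 FPKM in the other libraries numbered 1 and 3. The number 2 libraries read 3.23 FPKM (vector) and 3.10 FPKM (overexpression). By role, number was called for 4 of 7 p53 regulators and relatives, all higher in number 2, 5 of 5 growth arrest genes (2 higher, 3 lower), 6 of 11 apoptosis genes (4 higher, 2 lower) and 3 of 3 repair genes, all higher. Of metabolism and autophagy genes 2 of 5 were called, 1 in each direction, and of other targets 6 of 12, all higher. These directions depended on the scaling. With trimmed mean factors, apoptosis genes were 2 higher and 5 lower, growth arrest genes 1 higher and 3 lower, and repair genes 1 of 3, since the calls of XPC and POLH ended (adjusted p = 0.221 and 0.0804). RCHY1 and KITLG, the ligand of KIT, were then called lower (limma F test, adjusted p = 0.0228 and 0.0172), so p53 regulators and relatives became 4 higher and 1 lower, and other targets 6 higher and 1 lower.

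**Figure D4:**
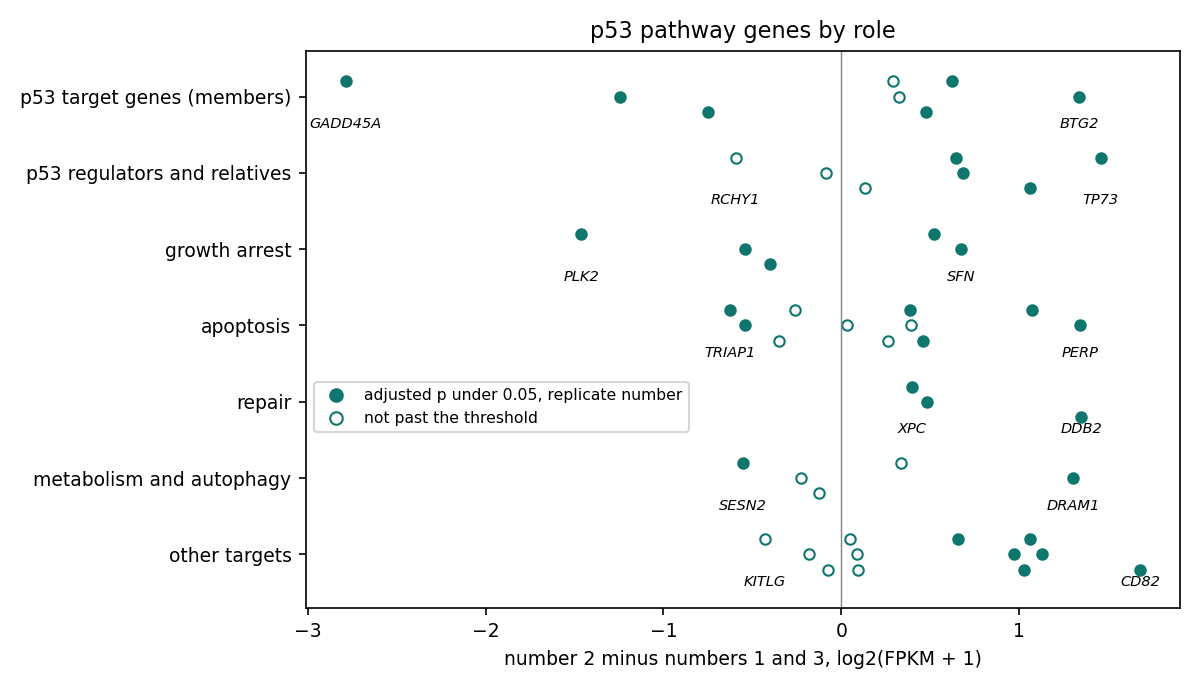
Difference between number 2 and numbers 1 and 3 on the log2(FPKM + 1) scale for the tested p53 target genes and the tested genes of the wider list by role, filled where the F test of replicate number gave an adjusted p under 0.05 and open otherwise, with the outermost genes of each row named. Filled points stand on both sides of 0 in each row except p53 regulators and relatives, repair and other targets, where they lie above 0 with deposited FPKM (with trimmed mean factors 1 regulator and 1 other target are called lower), and GADD45A is the outermost of all.

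Of 12 cell cycle genes that fall when p53 is active, 0 passed between the groups in either fit, with log2 differences from -0.15 for the mitotic kinase AURKA to 0.16 for the phosphatase CDC25C. By number 5 of 12 were called (41.7% against 46.5% of all genes), 1 higher and 4 lower in number 2, and with trimmed mean factors 7, with 1 higher and 6 lower. The genes whose levels followed MDM2 most closely over the 6 libraries, by the root mean square difference of centred log2 values, were USP33, a deubiquitinase (0.047), BMP8B, a growth factor (0.054), CASZ1, a zinc finger transcription factor (0.054), and CEPT1, a phospholipid synthesis enzyme (0.057). USP33 read 18.2, 32.0 and 19.7 FPKM in vector libraries and 15.1, 27.2 and 21.7 FPKM in overexpression libraries, numbers 1 to 3.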

How the data were processed

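Purified mRNA of 6 SACC-83 libraries was sequenced, per the labels' protocols, after TRIzol extraction with a NEBNext Ultra kit. The submitters' processing notes list HISAT2 and GRCh38; how fragments were counted, on which annotation and with or without strand is not given in the sources used here. FPKM per gene is what the authors deposited, from which no depth or counting error follows. Libraries were grouped by sample title. Values log2(FPKM + 1) of 12064 genes (at least 1 FPKM in at least 3 libraries) were fitted with limma 3.58.1 in R 4.3.3 (trended eBayes, 2-sided, Benjamini-Hochberg over all genes, threshold 0.05), with group alone, with replicate number as a block, and with an F test of replicate number beside group. The script was tested on simulated data. An exact permutation test of 3 against 3 cannot go below 0.1.

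The labels do not say what a replicate number stands for. Deviations from group means of same-numbered libraries correlated at 0.725, 0.881 and 0.529 for numbers 1, 2 and 3, above the limit of 0.1, and the numbers were taken as pairs. Numbers 1 and 3 crossed gave 0.412 and 0.424, which are above that limit too. The check thus sets number 2 apart but cannot show that numbers 1 and 3 are matched pairs. The block fits and the counts over pairs rest on that assumption. Members and lists were chosen with earlier results of these data known. Named genes are all members, MDM4, CDKN1A, MYBL1, the extremes of the wider list by group and number (3 each way), the extremes of the cell cycle list by group, and 4 genes nearest MDM2; KRT5 and other markers, and genes whose call a setting ended, were named after their values were seen. The wider list uses the more abundant of 2 SCO2 identifiers, and 2 genes planned for it are not reported here.

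Alternatives were a pseudocount of 0.1, no filter, a mean of at least 5 FPKM, TPM, trimmed mean (TMM) factors computed directly on tested genes, no trend, the block, and leaving out each library or number. Correction for GC content and length of the longest GENCODE 29 transcript by fitted curves, and TMM factors over all rows, were added after the data were seen.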

Additional observations from a re-analysis of the deposited data

How the results depend on the processing

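Read depth is unknown, so counting error limits the low members in a way that cannot be stated. No member passed between the groups in any setting except GADD45A in the block fit without replicate 2 (1 member called, 2 of the wider list). Genes called between the groups numbered 12 with the replicate block, 14, 148 and 22 with the block and without replicate 1, 2 or 3, and 8 with the block and GC and length correction, while leaving out 1 library without the block gave 0 to 1. The block changed no member's call. Genes called by replicate number were 3389 without a filter and 3663 to 6174 without 1 library (lowest without vector replicate 2), members called 5 to 6, and wider list genes 20 to 30 without 1 library and 14 without a filter. The median log2 difference of the members, -0.09, was -0.047 after GC and length correction, with or without the block, and -0.020 to 0.017 without 1 library, with a median above 0 without vector replicate 1 (0.017), 2 (0.0024) or 3 (0.012). Without 1 library, in the fit without the block, the log2 difference ranged from -0.38 to 0.45 for AEN, -0.51 to 0.38 for BTG2, -1.33 to 0.52 for GADD45A, -0.32 to 0.11 for MDM2, -0.20 to 0.024 for SESN1, -0.15 to 0.35 for TIGAR, -0.34 to -0.01 for RRM2B and 0.15 to 0.34 for FDXR. AEN also turned to -0.019 in the block fit without replicate 2. The other tested members kept their sign in the block fits without replicate 1, 2 or 3. The cause of these changes was not tested.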
